A study of Mus musculus with 47 samples.

Results

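The testis-specific serine kinase genes are the 6 genes of the mouse Tssk family, Tssk1 to Tssk6, chosen by their symbols. All 6 were listed in each of the 10 count files, among 23416 genes. To ask whether a father without SCML2 leaves a mark on RNA in his descendants, the study sequenced RNA of motile spermatozoa and of liver from males of 8 to 12 weeks. SCML2 is a germline Polycomb protein encoded on the X chromosome. Ctrl-F1 males (background strain BDF2 in the labels) were sired by wild-type littermates and KO-F1 males (BDF2) by Scml2-KO males (Scml2 -/y), both through intracytoplasmic sperm injection (ICSI) of testicular sperm into oocytes. KO-F2 males (BDF3) came from natural mating of KO-F1 males with C57BL/6 females. Sons receive no X chromosome from their father, so the KO-F1 males carried wild-type Scml2, and all groups but KO-F2 came from ICSI. Liver was taken from Ctrl-F1 and KO-F1, spermatozoa from Ctrl-F1, KO-F1 and KO-F2, with 2 libraries per group. No Ctrl-F2 group was analysed here.

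TSSK proteins are small serine/threonine kinases of the CAMK group, related to the AMP-activated kinase. Their genes are transcribed after meiosis, in spermatids, and their transcripts are carried into mature spermatozoa, in which transcription has stopped. TSSK1 and TSSK2 bind their substrate TSKS and act together in the reshaping of the spermatid, TSSK3 and TSSK6 are needed for male fertility, and TSSK4 phosphorylates ODF2 of the sperm tail. In bulk samples, fewer cells of a type and less RNA per cell cannot be told apart.

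The genes lie on 5 chromosomes of GRCm38, by the RefSeq annotation. Tssk1 (chr16:17894203-17895653) and Tssk2 (chr16:17898637-17900024) are a tandem pair on the plus strand, each with 1 exon, and 2983 bp apart. Tssk6 (chr8:69902184-69903518, plus strand) also has 1 exon. Tssk3 (chr4:129489008-129491730, minus strand) has 2 exons, Tssk4 (chr14:55643651-55652539, plus strand) has 4, and Tssk5 (chr15:76371958-76375191, minus strand) has 8. Tssk1 and Tssk2 aligned with each other over 914 bp at 85.7% identity. A megablast search of the assembled chromosomes found no other region closely similar to a member. That search kept only close matches of at least 75 bases, so more distant likeness between members was not covered. The longest stretch that Tssk1 and Tssk2 shared base for base was 113 bases in the coding exon of Tssk1 (chr16:17894723-17894835). It is shown because a 75-base read from within it cannot be placed on 1 of the 2 genes.
Tssk1 and Tssk2: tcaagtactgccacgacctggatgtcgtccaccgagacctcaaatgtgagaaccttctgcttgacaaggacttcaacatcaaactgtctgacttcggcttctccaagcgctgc
Of the 1377 possible 75-base reads of the Tssk1 transcript strand, 75 (5.45%) also occurred in Tssk2. No such read was shared between any other pair of members. As the authors counted uniquely aligned reads, the counts of Tssk1 and Tssk2 leave out such stretches in every library alike.

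Upstream sequence is shown for the tandem pair, which is transcribed from neighbouring starts, and for Tssk6, the most abundant member. RefSeq promoters were found for 5 of the 6 members, all but Tssk5. The 80 bases before each start are written on the gene's strand, with capitals for TGACTTCA or its reverse complement, which resembles the cAMP response element TGACGTCA, and for TGACG, the first part of that element. TGACTTCA was searched after the sequences had been seen.
Tssk1 (chr16:17894123-17894202): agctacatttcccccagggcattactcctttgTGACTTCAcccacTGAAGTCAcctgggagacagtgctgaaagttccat
Tssk2 (chr16:17898557-17898636): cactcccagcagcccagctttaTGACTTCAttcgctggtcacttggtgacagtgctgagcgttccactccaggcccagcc
Tssk6 (chr8:69902104-69902183): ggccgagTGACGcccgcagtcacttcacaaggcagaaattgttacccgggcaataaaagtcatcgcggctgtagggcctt
Over the full RefSeq promoter windows, which run past the start, and on both strands, TGACTTCA was found in Tssk1 on either strand and in Tssk2, and in none of Tssk3, Tssk4 and Tssk6, whereas 1.52% of 32851 mouse promoters held it. Tssk6 alone held TGACG, as did 20.8% of promoters, and the full TGACGTCA, found in 1.79% of promoters, was in none of the 5. CCAAT was found in Tssk3 and Tssk4 (37.4% of promoters), and TATAAA in none of the 5 (13.6% of promoters). The last 100 bases upstream of Tssk1 and Tssk2 aligned over 87 positions, of which 61 (70.1%) were identical. These matches describe letters only.

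Library totals ran from 1503733 to 2778171 counts in F1 spermatozoa, from 8384266 to 11462105 in KO-F2 spermatozoa and from 11339729 to 14278900 in liver. The ribosomal RNA gene Rn45s took between 3.52% and 28.7% of the counts of a sperm library. Of the 30 late spermatid markers, such as the protamines, at most 1 was at 0 counts in a sperm library, and the list held between 4.92% and 17.1% of the counts. Hepatocyte markers summed to at most 59 counts in a sperm library. Epididymal epithelium markers held 2.22% and 0.916% of the counts for Ctrl-F1, 1.21% and 1.5002% for KO-F1, and 0.434% and 0.315% for KO-F2. These sums rest largely on Crisp1, with 44302 of 53960 counts in Ctrl-F1 replicate 1 and 32737 of 49690 in KO-F2 replicate 1. Single markers went both ways against Ctrl-F1, with 3 higher and 8 lower in KO-F1, and 5 higher and 7 lower in KO-F2. Crisp1 was present in all 6 sperm libraries, while Spint4 was at 0 in all 6. Scml2 had 0 counts in liver and at most 18 in a sperm library. The labels name run0133 for both KO-F2 libraries and no run for the F1 sperm libraries. Generation, background strain, way of conception (ICSI or natural mating), library depth and sequencing run therefore cannot be told apart in comparisons with KO-F2.

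In spermatozoa, Tssk6 was the most abundant member and Tssk5 was barely counted. Levels are given as CPM, the counts scaled to a common library size, with TMM factors over the 6 sperm libraries, and, to compare genes, as CPM per kilobase of exon in curated RefSeq transcripts. In Ctrl-F1 spermatozoa, the level per kilobase was 2363 ± 475 (SD, n = 2) for Tssk6, 569.6 ± 128 for Tssk2 and 323 ± 39.9 for Tssk3. It was 55.4 ± 14.5 for Tssk1, 14.99 ± 1.12 for Tssk4 and 0.555 ± 0.785 for Tssk5. The order Tssk6, Tssk2, Tssk3, Tssk1, Tssk4, Tssk5 was found in 6 of 6 sperm libraries. It was also found in 6 of 6 when lengths were taken over all RefSeq exons. The neighbours in this order did not overlap within a group except Tssk1 and Tssk4 in KO-F1, where the levels per kilobase were 8.21 and 12.9 for Tssk1 and 6.08 and 11.1 for Tssk4.

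**Figure D1:**
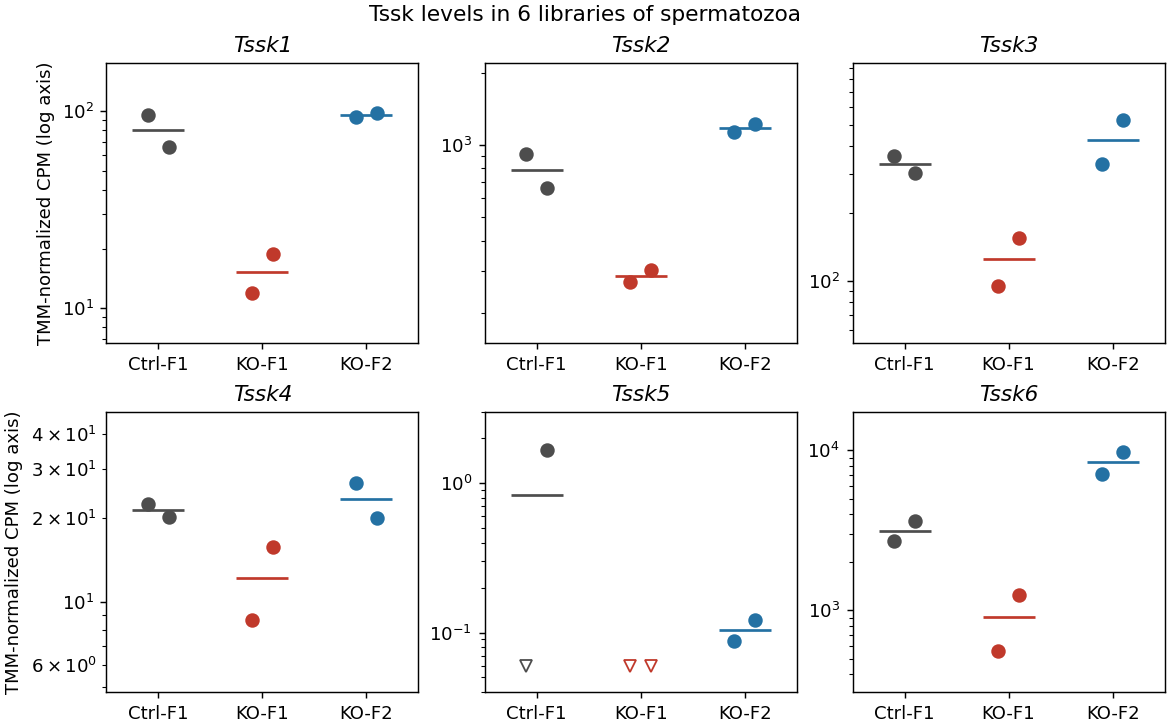
Level of each Tssk gene (TMM-normalized CPM, log axis) in the 6 sperm libraries; filled points are libraries, lines are group means, and open triangles at the bottom of the Tssk5 panel mark libraries with 0 counts. For the 5 genes other than Tssk5, both KO-F1 points lie below both Ctrl-F1 and both KO-F2 points.

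The liver held next to no Tssk RNA. Tssk2, Tssk3 and Tssk5 had 0 counts in all 4 liver libraries, which allows a level of up to between 0.210 and 0.265 CPM of the library total. In Ctrl-F1 liver Tssk1 had 1 and 4 counts, beside 3 and 0 in the livers of KO-F1. Tssk4 had 1 and 2 counts in the control livers and none in those of KO-F1, and the only count of Tssk6 was 1 in KO-F1 liver replicate 1. No comparison between KO-F1 and Ctrl-F1 liver can be made at these counts.

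Against Ctrl-F1 liver, Tssk6 was at least 12829-fold higher in Ctrl-F1 spermatozoa, Tssk2 at least 3308-fold and Tssk3 at least 1388.5-fold, on shares of the library total and with a floor of 3 counts per liver library. The ratio was 431 for Tssk1 (95% exact interval 182 to 1336) and 182 for Tssk4 (60.1 to 904), counting error only. Tssk5, with 0 and 2 counts in Ctrl-F1 spermatozoa, was under the floor in both tissues. In edgeR's quasi-likelihood test, 5 of the 5 members tested were called, as were 30.2% of the 13204 genes tested. These 5 passed the filter on low counts only through the sperm libraries, where they were high. The number of members called was thus largely set by that filter and adds nothing to the counts themselves. A call meant that the fold change was 2 or more while the p adjusted by Benjamini-Hochberg stayed under 0.01. Their adjusted p-values lay between 0.00121 and 0.00182, and only Tssk4 lost the call when a library was left out (adjusted p = 0.0102 in edgeR without Ctrl-F1 liver replicate 1). Tissue and library kit cannot be told apart here, since an mRNA kit served for liver and whole-transcript cDNA amplified by PCR for spermatozoa.

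In KO-F1 spermatozoa, the 5 members that could be tested were all lower than in Ctrl-F1 spermatozoa, as were the late spermatid markers, and none was called by edgeR. Tssk1 had 221 and 78 counts in the Ctrl-F1 libraries and 40 and 44 in the KO-F1 libraries, which is 95.2 and 65.5 CPM against 11.9 and 18.8 CPM. Both KO-F1 libraries lay far below both controls. Its log2 fold change was -2.42 (SE 0.55, adjusted p = 0.140 in edgeR), the largest of the family. Tssk2, its tandem neighbour, had 2126 and 792 counts in Ctrl-F1 libraries against 903 and 708 in KO-F1, or 916 and 665 CPM against 269 and 302 CPM. The groups did not overlap, and the log2 fold change was -1.496 (SE 0.40, adjusted p = 0.142 in edgeR).

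Tssk6, whose product is needed for the exchange of histones for protamines in spermatids, had 6278 and 4290 counts in Ctrl-F1 libraries against 1869 and 2931 in KO-F1, or 2705 and 3603 CPM against 556 and 1250 CPM. Both Ctrl-F1 values lay far above both KO-F1 values, and the log2 fold change was -1.81 (SE 0.52, adjusted p = 0.144 in edgeR). It was -2.52 without KO-F1 replicate 2 and -1.35 without KO-F1 replicate 1, and was not called either time. Tssk3 had 843 and 363 counts in Ctrl-F1 libraries against 317 and 364 in KO-F1, or 363 and 305 CPM against 94.4 and 155 CPM, again without overlap. Its log2 fold change was -1.44 (SE 0.43, adjusted p = 0.153 in edgeR). Tssk4 had 52 and 24 counts in Ctrl-F1 libraries against 29 and 37 in KO-F1, or 22.4 and 20.2 CPM against 8.63 and 15.8 CPM. This was the smallest difference, -0.82 on the log2 scale (SE 0.75, adjusted p = 0.595 in edgeR), about as large as its error. Tssk5 had 0 and 2 counts in Ctrl-F1 libraries against 0 and 0 in KO-F1, too few for the test.

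The count of members called by edgeR in KO-F1 spermatozoa was thus 0 of the 5 tested, and over the whole transcriptome it was 0% of 10785 genes. An unadjusted p under 0.05 was found for 4 of the 5 members and for 19.5% of all genes tested. The values of the KO-F1 and Ctrl-F1 libraries did not overlap for 5 of the 5 members and for 54% of all genes tested. DESeq2 on the same 4 libraries called Tssk1 (adjusted p = 0.00545), Tssk2 (0.00149) and Tssk6 (0.000527), 3 of the 4 members to which it gave an adjusted p, beside 7.68% of 5077 genes. Tssk2 and Tssk6 are also on the study's own list of changed genes, which was made from these libraries and is not independent. The median log2 fold change of the 5 members was -1.496, against 0.02 over all genes tested. No exact two-sided permutation p for 1 gene can be lower than 0.333 with 2 libraries in each group.

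The late spermatid markers were lower in KO-F1 along with the family. In KO-F1 against Ctrl-F1 spermatozoa 29 of the 29 tested markers had a log2 fold change below 0, with a median of -1.80, and 26 of them had an unadjusted p under 0.05 in edgeR, though edgeR called 0 of them and DESeq2 called 18. The list held 14.6% and 13.1% of the counts in Ctrl-F1 libraries against 6.58% and 4.92% in KO-F1. Most of these counts came from Prm2, Smcp and Odf1, with 110774, 64889 and 62300 of 355062 in Ctrl-F1 replicate 1. For KO-F1 replicate 2 they had 17733, 34193 and 22708 of 102602. Their log2 fold changes in KO-F1 against Ctrl-F1 were -2.30, -1.19 and -1.66. The summed list, and any scaling to it, thus rests mainly on a few genes that differed unequally. The 6 Tssk genes together held 0.392% and 0.369% of the counts in Ctrl-F1 libraries against 0.114% and 0.196% in KO-F1. Set against the counts of the late spermatid list, the family made up 2.68% and 2.81% in Ctrl-F1 libraries against 1.73% and 3.98% in KO-F1, so that these ratios overlapped. When libraries were scaled to the late spermatid list in place of TMM, which moved the median of all genes to 1.74, the log2 fold changes were -0.67 for Tssk1, -0.02 for Tssk6, 0.24 for Tssk2, 0.32 for Tssk3 and 0.94 for Tssk4. None of these was called by edgeR, where 279 of all 10785 genes were called.

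**Figure D2:**
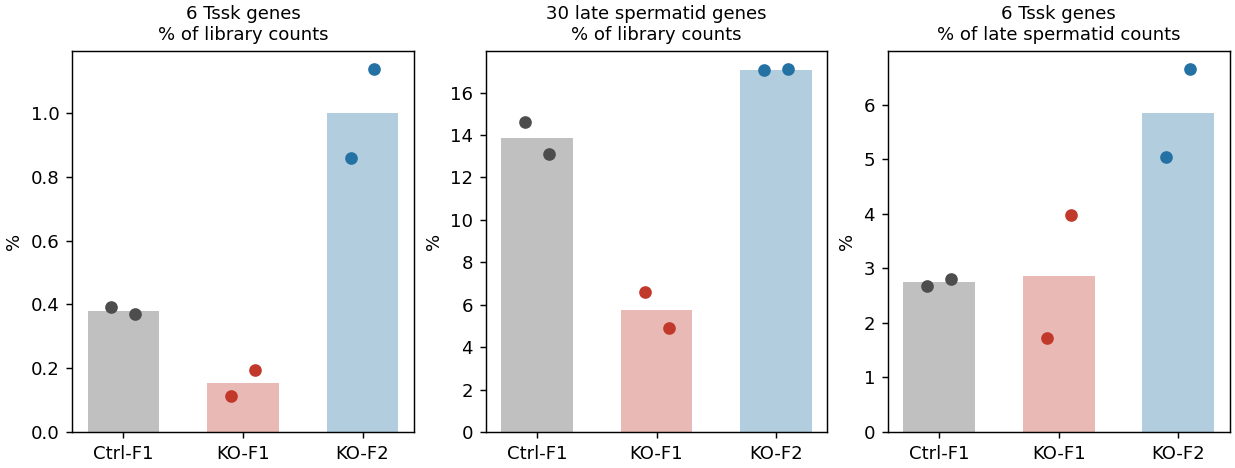
Summed counts of the 6 Tssk genes as a percentage of all counts (left), of 30 late spermatid markers as a percentage of all counts (middle), and of the Tssk genes as a percentage of the late spermatid counts (right); points are libraries and bars are group means of 2. Both lists are lowest in KO-F1, whereas the ratio of the lists in KO-F1 lies on either side of the Ctrl-F1 values and is highest in KO-F2.

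In KO-F2 spermatozoa the 5 tested members had mean levels at or above those of Ctrl-F1 spermatozoa, and Tssk6 was higher in both KO-F2 libraries than in both Ctrl-F1 libraries without being called by edgeR. Tssk6 had 80740 and 80051 counts in KO-F2, or 7131 and 9709 CPM, both above the 2705 and 3603 CPM of Ctrl-F1. The log2 fold change was 1.43 (SE 0.40, adjusted p = 0.218 in edgeR). DESeq2 called it, with an adjusted p of 0.00465. Scaled to the late spermatid list the log2 fold change of Tssk6 was 1.30, and the family made up 5.04% and 6.65% of the late spermatid counts, above both Ctrl-F1 values. Tssk2 had 12793 and 10067 counts, or 1130 and 1221 CPM, which is above both controls, and a log2 fold change of 0.58 (SE 0.33, adjusted p = 0.484 in edgeR).

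For Tssk1 and Tssk3, 1 KO-F2 library lay within the range of Ctrl-F1 and the other above it, and for Tssk4 the KO-F2 libraries lay on either side of it. Tssk1 had 1059 and 805 counts, or 93.5 and 97.6 CPM, beside 95.2 and 65.5 CPM in Ctrl-F1. Tssk3 had 3765 and 4319 counts, or 333 and 524 CPM, beside 363 and 305 CPM. Tssk4 had 301 and 165 counts, or 26.6 and 20.01 CPM, beside 22.4 and 20.2 CPM. Their log2 fold changes were 0.25 (SE 0.34), 0.37 (SE 0.34) and 0.14 (SE 0.45), and the libraries of the groups overlapped for these 3 genes. Tssk5 had 1 and 1 counts.

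In the comparison of KO-F2 with Ctrl-F1 spermatozoa, edgeR called 0 of the 5 members tested and 0% of 13149 genes, and Tssk6 was the 1 member with an unadjusted p under 0.05, a level reached by 14.9% of all genes. Groups did not overlap for Tssk2 and Tssk6, 2 of the 5, and for 48% of all genes. DESeq2 called 1 of the 5 members and 2.15% of 12885 genes. The median of the members was 0.37, against 0.07 over all genes tested. Of the 30 late spermatid markers 19 were higher and 11 lower, with a median of 0.22. The comparisons of KO-F1 and of KO-F2 share the Ctrl-F1 libraries, so their values are not independent. Leukocyte markers differed here: without Cd52, the 9 remaining markers held 0.0313% and 0.0697% of the counts for Ctrl-F1, 0.0331% and 0.0514% for KO-F1, and 0.392% and 0.517% for KO-F2. Ptprc, the common leukocyte antigen, had 0 and 15 counts for Ctrl-F1, 3 and 2 for KO-F1, and 289 and 175 for KO-F2. Cd52, which was set apart after its values were seen, held 0.672% and 0.239% of the counts for Ctrl-F1, 3.07% and 1.21% for KO-F1, and 0.303% and 0.141% for KO-F2. Of the 10 leukocyte markers edgeR called 0 in KO-F2 against Ctrl-F1, where DESeq2 called 5, and edgeR called 6 as higher in KO-F2 against KO-F1. Their part in the Tssk differences was not tested, nor was that of the epididymal markers.

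KO-F2 and KO-F1 spermatozoa were compared directly, where generation cannot be told apart from background strain, way of conception, library depth and sequencing run. In KO-F2 against KO-F1 spermatozoa all 5 members tested were higher, without overlap, and edgeR called Tssk1, with a log2 fold change of 2.82 (SE 0.38, adjusted p = 0.00956). Tssk2 and Tssk6 just missed the threshold of adjusted p, with log2 fold changes of 2.22 (SE 0.33, adjusted p = 0.0101) and 3.38 (SE 0.54, adjusted p = 0.0111) in edgeR. Tssk3 had a log2 fold change of 1.94 (SE 0.40, adjusted p = 0.0200) and Tssk4 one of 1.12 (SE 0.51, adjusted p = 0.156) in edgeR. Thus 1 of the 5 members was called, beside 2.28% of 13517 genes, and 4 had an unadjusted p under 0.05, as had 36.7% of all genes. No overlap between the groups was found for 66.2% of all genes.

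DESeq2 called Tssk1, Tssk2, Tssk3 and Tssk6, 4 of the 5, beside 13.6% of 15085 genes. Which member edgeR called depended on the library: without KO-F2 replicate 1 Tssk1 was not called (adjusted p = 0.0158) and Tssk6 was (0.00812), beside 142 of 13181 genes. Without KO-F1 replicate 1 the members called were 3, beside 1551 of 15036 genes. Without KO-F1 replicate 2 they were 4, beside 2899 of 15062 genes, and without KO-F2 replicate 2 they were 2, beside 367 of 13169 genes. Tssk6 was among the members called each time, with log2 fold changes from 2.87 without KO-F1 replicate 1 to 4.07 without KO-F1 replicate 2. The late spermatid list was higher in the same comparison, in 30 of 30 genes with a median log2 fold change of 2.43. The median was 2.22 for the members and 0.13 for all genes tested. Scaled to that list, which moved the median of all genes to -1.87, the log2 fold changes were 1.32 for Tssk6, 0.79 for Tssk1, 0.20 for Tssk2, -0.09 for Tssk3 and -0.93 for Tssk4. None of these was called by edgeR, where 3821 of all 13517 genes were called.

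**Figure D3:**
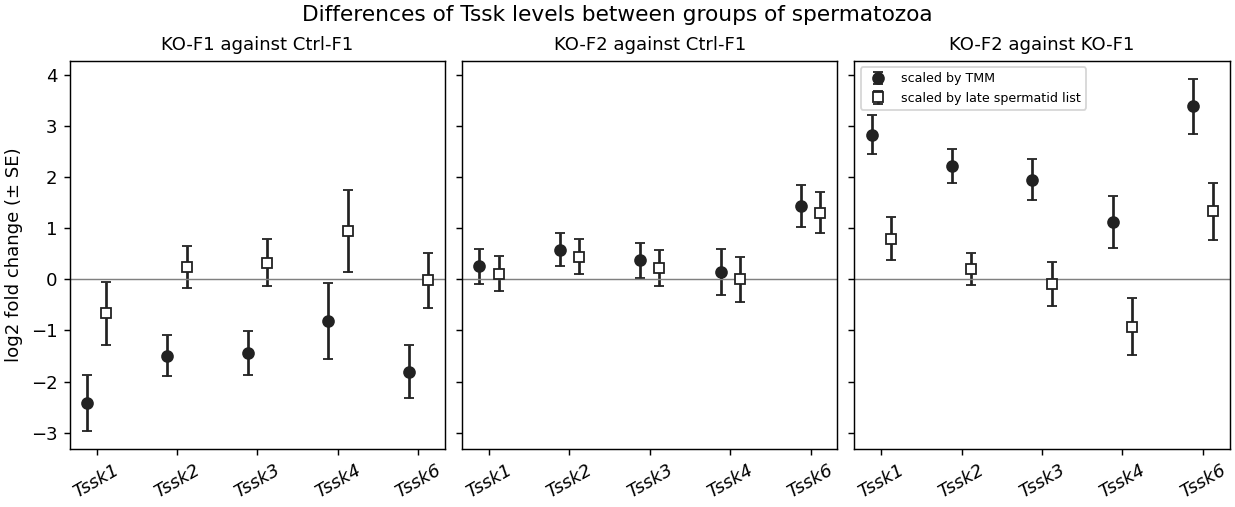
Log2 fold changes of the 5 tested Tssk genes in 3 comparisons of spermatozoa (edgeR, ± SE, 2 libraries per group), with libraries scaled by TMM (filled circles) or to the summed late spermatid markers (open squares). With the late spermatid scaling the values of KO-F1 against Ctrl-F1 lie between -0.67 and 0.94.

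The make-up of the family differed between libraries. The share of Tssk6 in the Tssk counts was 65.9% (95% Wilson interval, 65.0% to 66.9%) and 77.3% (76.2% to 78.4%) for Ctrl-F1, 59.2% (57.5% to 60.9%) and 71.8% (70.4% to 73.1%) for KO-F1, and 81.8% (81.6% to 82.1%) and 83.9% (83.7% to 84.1%) for KO-F2. The intervals cover counting error only, and the spread between the 2 libraries of a group was far wider than they are. Tssk2 was the second gene by counts, with 22.3% and 14.3% for Ctrl-F1, 28.6% and 17.3% for KO-F1, and 13.0% and 10.6% for KO-F2. The ratio of Tssk6 to Tssk2 counts was 2.95 and 5.42 for Ctrl-F1, 2.07 and 4.14 for KO-F1, and 6.31 and 7.95 for KO-F2. It overlapped between Ctrl-F1 and KO-F1 and was higher in both KO-F2 libraries than in the 4 F1 libraries.

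Within the tandem pair, Tssk2 had 9.62 and 10.2 times the counts of Tssk1 for Ctrl-F1, 22.6 and 16.1 times for KO-F1, and 12.1 and 12.5 times for KO-F2. The 3 groups did not overlap in this ratio, although only 40 and 44 counts of Tssk1 stand behind the KO-F1 values. Neither this ratio nor that of Tssk6 to Tssk2 was tested. How many other pairs of genes separate the groups in this way was not counted. For single genes, KO-F1 and Ctrl-F1 spermatozoa did not overlap in 54% of those tested. The ratio of Tssk2 to Tssk3 was between 1.95 and 3.40 in the 6 libraries, and all groups overlapped.

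**Figure D4:**
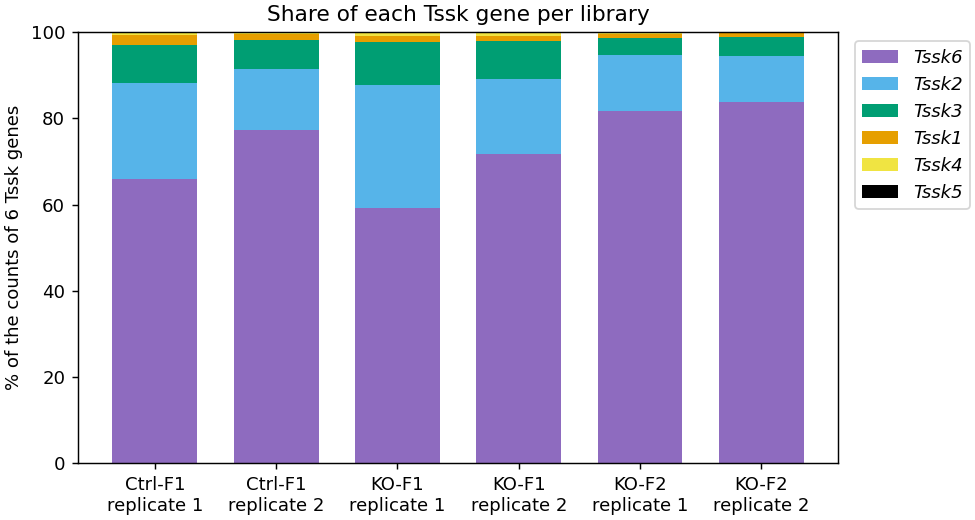
Share of each Tssk gene in the summed counts of the 6 genes (%, stacked bars from 0 to 100) for each of the 6 sperm libraries. Tssk6 takes the largest share in every library, from 59.2% to 83.9%.

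The count of Tssk6 needs a further value beside it. Of its 1335 exon bases, 375 (28.1%) also lie in exons of Ndufa13, a subunit gene of respiratory complex I on the opposite strand, and reads of the sperm libraries carry no strand. Ndufa13 had 427 and 565 CPM for Ctrl-F1, 170 and 253 CPM for KO-F1, and 1953 and 2826 CPM for KO-F2, so it ordered the groups as Tssk6 did. In KO-F2 against KO-F1 spermatozoa Ndufa13 was called by edgeR, with a log2 fold change of 3.66 (SE 0.42, adjusted p = 0.00913). In KO-F2 against Ctrl-F1 its log2 fold change was 2.28 (SE 0.37, adjusted p = 0.149 in edgeR), beside 1.43 for Tssk6. In KO-F1 against Ctrl-F1 it was -1.24 (SE 0.42, adjusted p = 0.171 in edgeR), beside -1.81 for Tssk6. The ratio of Tssk6 to Ndufa13 counts was 6.33 and 6.37 for Ctrl-F1, 3.28 and 4.94 for KO-F1, and 3.65 and 3.44 for KO-F2, so the genes did not keep 1 ratio. In liver, where the kit marks strand though the setting used in counting is not given, Ndufa13 had between 2187 and 2571 counts while Tssk6 had at most 1. Which of these genes gave the reads of the shared bases in spermatozoa was not tested. As the counting settings are not given, such reads may be in either count or in neither. A Tssk6 length of 960 bases, without the shared ones, left the level order of the members unchanged in 6 of 6 sperm libraries. That had to be so, as no read was taken out and a shorter length only raises the member already first. It is therefore no check on reads of the shared bases.

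**Figure D5:**
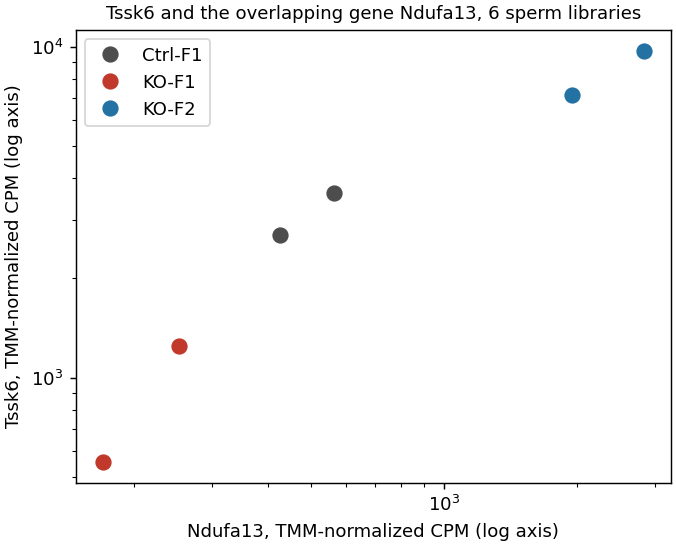
Level of Tssk6 against that of Ndufa13, the gene whose exons overlap it on the other strand (TMM-normalized CPM, both axes logarithmic); each point is 1 of the 6 sperm libraries. Both genes are lowest in the KO-F1 libraries and highest in the KO-F2 libraries.

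By the exons of their curated transcripts, no other member overlapped an annotated exon of another gene. Further RefSeq exons of Tssk3, Tssk4 and Tssk5 were not checked. Of the nearest protein-coding genes on either side of the members that do not overlap them, 6 were listed in the files under their RefSeq symbols: Dgcr2, Bsdc1, Ipo4, Mdp1, Mroh1 and Gatad2a. Their mean levels over the 6 sperm libraries lay between 16.5 and 70.9 CPM, and none was called in edgeR in any comparison of spermatozoa, though Dgcr2, Ipo4 and Mroh1 had an unadjusted p under 0.05 in KO-F2 against KO-F1, as had Dgcr2 in KO-F2 against Ctrl-F1 (log2 fold change 1.11). In KO-F1 against Ctrl-F1 spermatozoa their log2 fold changes ran from -1.14 for Ipo4 to 0.96 for Mdp1, with adjusted p-values of 0.309 and 0.535 in edgeR.

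Among the partners and substrates of the kinases, Tsks, Tsacc and Odf2 had the pattern of the family over the 3 groups. Tsks, the substrate of TSSK1 and TSSK2, had 431 and 458 CPM for Ctrl-F1, 93.2 and 162 CPM for KO-F1, and 750.2 and 883 CPM for KO-F2. Tsacc, which joins TSSK6 to the chaperone HSP90, had 198 and 106 CPM for Ctrl-F1, 51.8 and 56.3 CPM for KO-F1, and 300.02 and 340 CPM for KO-F2. Odf2, an outer dense fibre gene of the tail and a substrate of TSSK4, had 2205 and 1743 CPM for Ctrl-F1, 492 and 649 CPM for KO-F1, and 2930 and 2963 CPM for KO-F2. All 3 were lower in both KO-F1 libraries than in the other 4. Their log2 fold changes in KO-F1 against Ctrl-F1 were -1.82 (SE 0.44), -1.53 (SE 0.47) and -1.81 (SE 0.42), with adjusted p-values of 0.140, 0.156 and 0.140 in edgeR. In KO-F2 against KO-F1 edgeR called all 3, with log2 fold changes of 2.85 for Tsks (adjusted p = 0.00968), 2.74 for Tsacc (adjusted p = 0.00913) and 2.54 for Odf2 (adjusted p = 0.00984).

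Spag16, an axoneme gene, had 25.9 CPM on average in Ctrl-F1, 13.2 CPM in KO-F1 and 52.6 CPM in KO-F2, and was called by DESeq2 in KO-F2 against KO-F1 only, and by edgeR in no comparison of spermatozoa. Hsp90aa1, a chaperone of many kinases, had 194, 81.1 and 114 CPM on average in the 3 groups, and H2afx, the histone variant H2AX, had 32.8, 90.4 and 27.2 CPM. Neither was called by edgeR or DESeq2. In KO-F1 against Ctrl-F1 spermatozoa, 6 of the 10 genes on this list had lower values and 4 had higher values, with all 10 tested. The median was -0.62 and edgeR called 0, with 5 at an unadjusted p under 0.05 and 2 called by DESeq2 (Tsks and Odf2). Among those 5, Hsp90ab1 was higher in KO-F1, with 213 and 429 CPM on average and a log2 fold change of 0.985 (SE 0.40). In KO-F2 against Ctrl-F1 edgeR and DESeq2 called 0 of the 10, with 3 at an unadjusted p under 0.05 and a median of 0.34. In KO-F2 against KO-F1, 6 of the 10 were higher and 4 lower, with a median of 0.59 and 6 at an unadjusted p under 0.05. There edgeR called 3, Tsks, Tsacc and Odf2, and DESeq2 called 4.

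The other kinases of the AMPK-related branch were low in spermatozoa and were not called in any of the 3 comparisons by edgeR, with 0, 2 and 4 at an unadjusted p under 0.05 in KO-F1 against Ctrl-F1, KO-F2 against Ctrl-F1 and KO-F2 against KO-F1. DESeq2 called 1, in the last of these. The summed counts of all 16 genes were between 0.0129% and 0.0234% of a sperm library, whereas the 6 Tssk genes held between 0.114% and 1.14%. In KO-F1 against Ctrl-F1 spermatozoa 9 of the 16 were tested, 6 with lower and 3 with higher values and a median log2 fold change of -0.22. The named genes had log2 fold changes of -0.93 for Prkaa1, a catalytic subunit of AMPK, -0.70 for Stk11, the upstream kinase LKB1, -0.32 for Sik1, 0.30 for Mark3, -0.22 for Snrk and 0.08 for Sik3. In KO-F2 against KO-F1 the median over 14 genes was 0.83, and Sik1 had a log2 fold change of 2.66 (SE 0.58, adjusted p = 0.0239 in edgeR) and was the gene that DESeq2 called.

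The last list held other kinases and anchors of germ cells, and 13 of its 14 genes were in the files. In KO-F1 against Ctrl-F1 spermatozoa 9 of the 12 tested were lower, with a median log2 fold change of -1.18, and edgeR called 0, with 4 at an unadjusted p under 0.05, while DESeq2 called Akap4. In KO-F2 against Ctrl-F1 the median over 13 genes was -0.01, with 0 called by either tool and 0 at an unadjusted p under 0.05. In KO-F1 against Ctrl-F1 the log2 fold changes were -2.22 for Mak, a kinase of male germ cells, -1.97 for Akap4 and -1.52 for Akap3, anchors of protein kinase A in the fibrous sheath, and -1.55 for Prkar2a, a regulatory subunit of that kinase. In the same comparison they were -1.35 for Stk33 and -1.24 for Csnk2a2, the alpha prime subunit of casein kinase II. Akap4, which is also on the late spermatid list, had 1515 and 1026 CPM for Ctrl-F1, 346 and 316 CPM for KO-F1, and 1737 and 1280 CPM for KO-F2. In KO-F2 against KO-F1, 12 of the 13 tested were higher, with a median of 1.25, and 0 were called by edgeR; 8 had an unadjusted p under 0.05 and DESeq2 called 2.

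The genes whose pattern over the 6 sperm libraries was most like the mean pattern of Tssk1, Tssk2, Tssk3, Tssk4 and Tssk6 were Gm1661 (Pearson r = 0.997), Coq4 (0.995), Spert (0.995), Tcp11 (0.995) and Heatr8 (0.994), on log2(CPM + 1). Tcp11, a gene of the male germ line, had 2987 and 2914 CPM for Ctrl-F1, 746 and 1078 CPM for KO-F1, and 4434 and 4316 CPM for KO-F2. The likeness describes 6 libraries in 3 groups, and 721 of the 7609 genes with a mean of at least 10 CPM had an r over 0.9. The 5 members themselves had an r with their mean pattern of between 0.909 for Tssk4 and 0.984 for Tssk1. Each member is part of that mean, so a high r is partly built in.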

How the data were processed

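RNA-seq libraries of spermatozoa (6) and liver (4) were used. The authors aligned single-end reads of 75 bases to GRCm38 with HISAT2 2.1.0 at default settings, counted uniquely aligned reads with featureCounts and deposited raw counts per gene symbol; the annotation and the strand setting are not given in the sources used here. Sperm cDNA was amplified by PCR, so reads are not independent molecules, and intervals and floors cover counting error only. Each file held 23420 lines, and 4 lines of 2 repeated symbols were dropped.

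Groups were compared with edgeR 4.0.16 in R 4.3.3 (TMM, filterByExpr with its minimum count of 10 and minimum total of 15, quasi-likelihood test, Benjamini-Hochberg adjustment over all genes tested), with calls made for fold changes of 2 or more whose adjusted p was under 0.01. Standard errors were taken from the log2 fold change and the F statistic. The tests were also run on counts simulated from edgeR's own fitted model, which checks their running and not how animals vary. Alternatives were DESeq2 1.42.0, DESeq2's size factors, no filter, the replicate number as a block, 10 counts in every library, each library left out, all sperm groups in 1 model, scaling to 30 late spermatid markers, an adjusted p under 0.05 and no fold threshold. Gene lengths over all RefSeq exons, and a Tssk6 length without the bases shared with Ndufa13, were alternatives chosen after seeing the data. Gene models, promoters and genome sequence were those of RefSeq on GRCm38.

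All 6 members were named. Of each of 3 lists written from general knowledge, up to 6 genes were named, those with the largest absolute log2 fold change in KO-F1 against Ctrl-F1 spermatozoa and a mean of at least 10 CPM, with Tsks, Tsacc and Odf2 in any case. Hsp90ab1 was named besides, because it was higher in that comparison at an unadjusted p under 0.05 in edgeR. The 5 genes most like the members were named by Pearson r. The members and the lists were chosen with earlier results of these data known. ChIP-seq and embryo samples were not analysed here.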

Additional observations from a re-analysis of the deposited data

Results flagged for a closer look

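Tssk1 stands here because its level differed between KO-F2 and KO-F1 spermatozoa in a direct test. Its log2 fold change between KO-F2 and KO-F1 spermatozoa was 2.82 (SE 0.38, adjusted p = 0.00956 in edgeR's quasi-likelihood test), and both KO-F2 libraries were higher than both KO-F1 libraries. The call was lost without KO-F2 replicate 1 (adjusted p = 0.0158 in edgeR). Without a Ctrl-F2 group, this compares levels and not an effect of the father. Generation, background strain, way of conception (ICSI or natural mating), library depth and sequencing run cannot be told apart. Scaled to the late spermatid markers the value was 0.79 and was not called, with an adjusted p of 0.161 in edgeR.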

How the results depend on the processing

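Of the log2 fold changes of members under an alternative, 168 kept their direction and their side of the threshold, 27 passed it, 3 no longer passed it and 7 changed sign. Of the changes of sign, 6 came with scaling to the late spermatid list: for KO-F1 with Ctrl-F1 spermatozoa Tssk2 (0.24), Tssk3 (0.32) and Tssk4 (0.94), for KO-F2 with Ctrl-F1 spermatozoa Tssk4 (-0.00041), and for KO-F2 with KO-F1 spermatozoa Tssk3 (-0.093) and Tssk4 (-0.93). The other was Tssk4 in KO-F2 with Ctrl-F1 spermatozoa without KO-F2 replicate 1 (-0.056), against 0.365 without KO-F2 replicate 2. The number of members called moved as follows. In KO-F1 with Ctrl-F1 spermatozoa it was 0, but 3 by DESeq2 and 1 with 10 counts required in every library, and 0 with each library left out in turn. In KO-F2 with Ctrl-F1 spermatozoa it was 0, but 1 by DESeq2 and 1 with the replicate block, which was Tssk6 both times (adjusted p = 0.000251 with the block, where 362 genes were called in all). In KO-F2 with KO-F1 spermatozoa it was 1, but 4 by DESeq2, without a filter, with 10 counts in every library, with the replicate block and at an adjusted p under 0.05, 2 with DESeq2's size factors or all 3 sperm groups in 1 model, 0 with scaling to the late spermatid list, and between 1 and 4 with each library left out. In Ctrl-F1 spermatozoa with Ctrl-F1 liver it was 5, between 4 and 5 with each library left out, and 0 with 10 counts in every library, since no member then remained to be tested. Over all genes, the calls ranged from 0 to 390, 0 to 362, 142 to 3821 and 1987 to 8366 in these 4 comparisons, with 0, 0, 308 and 3990 as reported. Same-numbered libraries of different groups are not labelled as sharing an animal, litter or day and share only a number. The correlation of their deviations was -0.0089, 0.135, 0.0562 and 0.0367 in the same order of comparisons. The block changed no other call of a member than those counted here. In F1 spermatozoa 3 counts correspond to between 1.08 and 2.00 CPM of the library total, which limits what can be said of Tssk5. Without a filter Tssk5 was tested in all 4 comparisons and was called in none.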
